A study of Homo sapiens with 6 samples.

Results

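The MYC, MAX and MXD network was examined as 10 genes chosen by name, MYC, MYCN, MYCL, MAX, MXI1, MXD3, MXD4, MNT, MGA and MLX. Of these, 9 were among the 15897 genes listed with expression values, and MYCN was not listed. RNA-seq was performed on 6 libraries labelled as H1650, an established human lung adenocarcinoma cell line. The 3 control libraries were labelled wild type, and the 3 shSETD2 libraries came from cells with a short hairpin RNA against SETD2, a histone H3K36 methyltransferase. The hairpins were designed as several constructs delivered by lentivirus to give stable lines, and no source used here ties a construct to a library or says what the control cells carried. Since nothing states that the libraries of a group came from separate cultures, the tests measure the spread between these libraries, which may be technical. Where 3 values of a group are given, they follow replicates 1 to 3.

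MYC, MYCN and MYCL encode transcription factors of the basic helix-loop-helix leucine zipper class. Each must pair with MAX to bind the E-box CACGTG, where the pair recruits histone acetyltransferases and the machinery that releases paused RNA polymerase. MXI1, MXD3, MXD4 and MNT compete for MAX and bring the SIN3 corepressor to the same sites, so they are described as MYC antagonists. MGA also pairs with MAX and is a subunit of the polycomb complex PRC1.6, whereas MLX is a MAX-like protein that serves the glucose-sensing partners MLXIP and MLXIPL. MYC is a common oncogene, and MYC and MYCL are recurrently amplified in lung cancers.

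The sequence that the network reads was looked for upstream of its own genes. RefSeq windows of the 250 bases before a gene start (GRCh38.p14) were used for all members but MYC. The upstream sequence of MYC was not examined. Some members had several start sites, giving 14 windows. The E-box CACGTG, which reads the same on both strands, was present in 3 of the 14 windows, those of MXD4, MNT and MLX, and in 6.34% of all 35116 windows of this length. A match is a description of the letters and not of binding. The windows are shown 5′ to 3′ on the gene's strand for the member that fell most among the antagonists (MXD4, minus strand, chr4:2262110-2262359), the antagonist that rose (MNT, minus strand, chr17:2401061-2401310), MLX (plus strand, chr17:42566850-42567099) and, without an E-box, MYCL (minus strand, chr1:39901918-39902167). Capitals mark the E-box, whose first base lies 238 bases before the start of MXD4, 193 before that of MNT and 50 before that of MLX.
MXD4: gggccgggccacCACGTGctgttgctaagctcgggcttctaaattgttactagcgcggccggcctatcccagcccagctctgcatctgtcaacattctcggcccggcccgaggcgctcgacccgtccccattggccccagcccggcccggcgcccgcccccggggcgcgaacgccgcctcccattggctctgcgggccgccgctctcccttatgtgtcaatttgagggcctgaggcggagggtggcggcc
MNT: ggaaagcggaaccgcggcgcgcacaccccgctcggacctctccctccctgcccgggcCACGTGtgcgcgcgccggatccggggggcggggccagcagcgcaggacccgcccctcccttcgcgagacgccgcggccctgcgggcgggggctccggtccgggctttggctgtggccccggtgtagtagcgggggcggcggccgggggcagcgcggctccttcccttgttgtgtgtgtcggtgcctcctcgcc
MLX: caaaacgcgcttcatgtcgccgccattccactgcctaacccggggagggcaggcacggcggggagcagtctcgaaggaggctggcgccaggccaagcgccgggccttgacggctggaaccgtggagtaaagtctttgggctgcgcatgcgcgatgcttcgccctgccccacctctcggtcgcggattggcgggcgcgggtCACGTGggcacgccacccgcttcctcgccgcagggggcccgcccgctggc
MYCL: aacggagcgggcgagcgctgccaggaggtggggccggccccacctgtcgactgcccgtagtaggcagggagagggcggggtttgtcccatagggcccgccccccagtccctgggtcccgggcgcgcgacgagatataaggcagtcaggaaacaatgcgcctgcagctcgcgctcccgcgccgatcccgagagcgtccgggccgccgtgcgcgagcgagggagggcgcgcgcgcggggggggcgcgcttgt
The GC content of these windows was 70.4% for MXD4, 78% for MNT, 71.2% for MLX and 74.4% for MYCL, and the median over all windows was 58%.

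Expression is given as FPKM, a level scaled to gene length and library size. The number of fragments behind a value is unknown, so the only error available is the spread over 3 libraries. SETD2 itself was at 17.99, 10.2 and 17.6 FPKM for control and at 8.97, 8.09 and 12.2 for shSETD2. These groups overlapped, and the difference did not pass the test (log2 fold change -0.58, standard error or SE 0.24, adjusted p = 0.0641), so the level of the targeted gene does not by itself separate the libraries as labelled. The groups also differed in markers of lineage. Of 10 lung epithelial markers, 4 were listed, of which 2 rose (KRT7 and MUC1) and 2 fell (NKX2-1 and FOXA1). Their sum, between 3.997 and 5.299 FPKM in control and between 79.6 and 90.5 in shSETD2 libraries, is carried by KRT7. Among these markers, NKX2-1 was between 1.44 and 1.80 FPKM in the control libraries and listed at 0 in all shSETD2 libraries. The surfactant genes SFTPB, SFTPC and SFTPD were not listed. KRT7 was at most 0.0375 FPKM in control and at least 77.0 in shSETD2 libraries. The 7 renal and embryonic kidney markers reported here summed to between 13.8 and 17.15 FPKM in control and between 46.2 and 56.3 in shSETD2 libraries, and PAX8, a renal lineage factor, was at most 0.0368 FPKM in control and at least 28.05 in shSETD2 libraries. Of 10 general epithelial markers, 8 were listed and 4 tested, of which KRT8 and KRT18 rose and CDH1 and ESRP2 fell. The sum of the 8, between 16.4 and 17.7 FPKM in control and between 325.1 and 367.4 in shSETD2 libraries, is carried by the keratins, while CDH1, the E-cadherin gene, went from between 0.860 and 1.52 FPKM to at most 0.0140. Fibroblast markers (4 of 8 listed) summed to between 4.04 and 4.54 FPKM in control and between 0.292 and 0.340 in shSETD2 libraries. Leukocyte markers (2 of 8 listed) summed to between 1.33 and 1.62 against between 1.91 and 2.24 FPKM, and none of 6 endothelial markers was listed. The part of these lineage differences in the results on the network was not tested. Although all libraries are labelled H1650, these values do not establish that both groups are the same cell line, and a difference of line and an effect of the hairpin cannot be told apart in any comparison given here. Likewise, in bulk RNA, fewer expressing cells cannot be told apart from less RNA per cell.

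MYC rose in the libraries labelled shSETD2, but unevenly. Its FPKM (ENSG00000136997.17_3, plus strand of chromosome 8 of GRCh37, 128747680 to 128753680) was 2.53, 2.00 and 2.66 for control and 2.97, 11.3 and 14.95 for shSETD2. The shSETD2 library 1 lay only just above the highest control library, while the other two lay far above it. The mean was 2.395 ± 0.352 (SD, n = 3) for control against 9.74 ± 6.14 (SD, n = 3) for shSETD2, a 4.07-fold ratio. In limma the difference of mean log2(FPKM + 1), which is not the log2 of that ratio, was 1.44 (SE 0.50) with an adjusted p of 0.0348. Without shSETD2 library 1 it was 2.05 with an adjusted p of 1.09e-04, and leaving out any of the other 5 libraries gave an adjusted p between 0.0717 and 0.109, so that the call was lost. It was also lost when each gene was fitted with its own variance (adjusted p = 0.102). The highest shSETD2 value was 5.03 times the lowest, and of 4842 tested genes with a mean shSETD2 FPKM within 2-fold of that of MYC, 11 (0.227%) had a larger ratio. In the control libraries this ratio was 1.33, and 31.2% of genes at a similar level exceeded it.

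PVT1, a long noncoding RNA gene on the same strand that is often amplified together with MYC, was its nearest listed neighbour, 53099 bases downstream. PVT1 rose evenly, from 1.63, 2.05 and 1.502 FPKM for control to 7.15, 7.61 and 7.004 for shSETD2 (log2 fold change 1.6, SE 0.087, adjusted p = 5.97e-06). The ratio of means, 4.20, was close to that of MYC, but the highest shSETD2 value of PVT1 was only 1.09 times the lowest. The low value of MYC in shSETD2 library 1 was thus not seen in PVT1.

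**Figure D1:**
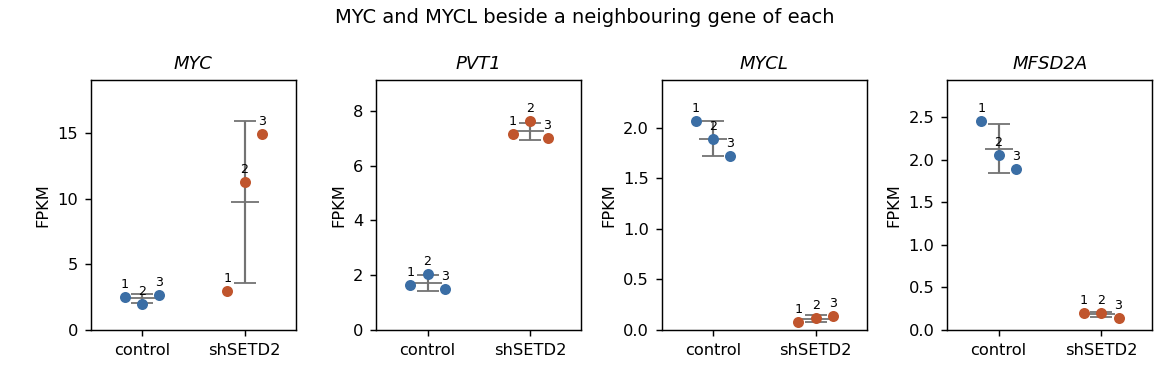
FPKM (vertical axes, starting at 0) of MYC, its neighbour PVT1, MYCL and its neighbour MFSD2A in each library, numbered 1 to 3. Grey bars are the mean and SD of 3 libraries. MYC is low in shSETD2 library 1 (2.97) and high in libraries 2 and 3, whereas PVT1 is between 7.004 and 7.61 in all of them.

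The pattern of MYC over the 6 libraries was compared with that of every other tested gene by the root mean square distance of log2(FPKM + 1) after centring each gene on its mean. The nearest were AC099518.3, PIP4K2C and FAM57A, at distances of 0.264, 0.343 and 0.350. PIP4K2C, which encodes a phosphoinositide kinase, was at 6.67, 7.55 and 7.99 FPKM for control and at 10.35, 23.6 and 21.9 for shSETD2. FAM57A was between 2.79 and 3.47 FPKM in control and at 5.65, 11.3 and 12.1 for shSETD2. The noncoding gene AC099518.3 was at most 0.0663 FPKM in control and at 0, 1.30 and 3.56 for shSETD2. All of these genes were lowest in library 1 among the shSETD2 libraries, a feature that the measure of likeness selects for.

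MYCL changed in the opposite direction to MYC and was nearly lost. MYCL (ENSG00000116990.10_3, minus strand of chromosome 1, 40361098 to 40367928) was at 2.065, 1.89 and 1.73 FPKM for control and at 0.0750, 0.123 and 0.140 for shSETD2. No library of a group came near the other group, and the mean was 16.8 times higher in control libraries. The log2 fold change was -1.38 (SE 0.066, adjusted p = 3.47e-06). At such low levels the size rests on the pseudocount, since adding 0.1 or 0.01 in place of 1 gave -3.24 and -3.99. MFSD2A, a lysophosphatidylcholine transporter gene 52856 bases away, fell as well, from between 1.89 and 2.45 FPKM to between 0.145 and 0.203 (log2 fold change -1.40, SE 0.080, adjusted p = 7.71e-06). On the other side TRIT1, a tRNA modification gene, was between 7.17 and 8.55 FPKM in control and between 6.55 and 6.91 in shSETD2 libraries, and its call (adjusted p = 0.0282) was lost under median ratio scaling (adjusted p = 0.419), where its log2 fold change was 0.07 in place of -0.23. The call of TRIT1 was also lost under quantile scaling and with a separate variance for each gene. The same held when any library but control library 3 was left out (adjusted p between 0.0528 and 0.0890).

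MAX, the shared partner, varied as much between libraries as between groups. Its FPKM (ENSG00000125952.18_2, minus strand of chromosome 14, 65472892 to 65569413) was 10.9, 7.81 and 5.11 for control and 7.09, 4.25 and 5.37 for shSETD2. The groups overlapped, and the log2 fold change of -0.41 (SE 0.27) did not pass the test (adjusted p = 0.199). Without control library 3 it was -0.66 with an adjusted p of 0.0398. The highest control value was 2.13 times the lowest, a spread that 2.35% of genes at a similar level exceeded. MAX overlaps FNTB and CHURC1-FNTB on the opposite strand, and the strand setting of the quantification is not given in the sources used here. Neither overlapping gene passed the test (adjusted p = 0.272 and 0.0691), although CHURC1-FNTB did under median ratio scaling (0.56, adjusted p = 8.11e-03) and without control library 3 or shSETD2 library 1 (0.42 each, adjusted p = 0.0287 and 0.0309). Both overlapping genes passed under quantile scaling. RAB15, a small GTPase gene on the side away from the start of MAX, rose (log2 fold change 0.85, adjusted p = 4.44e-04).

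Among the antagonists, MXD4 and MXD3 fell, MNT rose and MXI1 did not pass the test. MXD4 (ENSG00000123933.16_3, minus strand of chromosome 4, 2249159 to 2264021) was at 7.54, 7.39 and 7.33 FPKM for control and at 2.765, 2.95 and 3.15 for shSETD2. Its libraries were tightly grouped and far apart, with a log2 fold change of -1.09 (SE 0.055, adjusted p = 4.45e-06). HAUS3, which encodes an augmin subunit and lies 5268 bases away on the same strand, was lower too (log2 fold change -1.26, SE 0.076, adjusted p = 1.00e-05), whereas ZFYVE28 on the other side did not pass the test (log2 fold change 0.07, adjusted p = 0.297) except under median ratio or quantile scaling (0.23 and adjusted p = 7.26e-03 for the former).

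MNT (ENSG00000070444.14_2, minus strand of chromosome 17, 2287354 to 2304412) was at 4.94, 4.43 and 5.02 FPKM for control and at 8.98, 7.26 and 7.80 for shSETD2. The groups lay apart, shSETD2 being higher, with a log2 fold change of 0.63 (SE 0.085, adjusted p = 5.12e-04). The flanking genes SGSM2 and METTL16 did not pass the test (adjusted p = 0.134 and 0.550). SGSM2 did under median ratio scaling (0.42, adjusted p = 1.58e-03) and under quantile scaling.

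MXI1 (ENSG00000119950.20_4, plus strand of chromosome 10, 111967363 to 112047123) was at 8.75, 8.54 and 5.76 FPKM for control and at 5.86, 3.49 and 5.81 for shSETD2. Control library 3 lay within the range of the shSETD2 libraries, and the log2 fold change was -0.53 (SE 0.22, adjusted p = 0.0612). Without that library it was -0.70 with an adjusted p of 0.0258. MXD3 (ENSG00000213347.10_3, minus strand of chromosome 5, 176728462 to 176739758) was at 3.68, 3.36 and 2.85 FPKM for control and at 2.41, 2.53 and 2.05 for shSETD2. The groups did not overlap, and the log2 fold change was -0.37 (SE 0.096, adjusted p = 0.0115), which was -0.12 with an adjusted p of 0.273 under median ratio scaling and -0.07 with 0.543 under quantile scaling. MXD3 overlaps RAB24 on the same strand and PRELID1 on the other. RAB24, a small GTPase gene listed at a higher level (between 9.25 and 10.8 FPKM in control libraries), fell with a log2 fold change of -0.97, so the values of MXD3 are uncertain where reads were shared. PRELID1 did not pass the test (adjusted p = 0.234), except under quantile scaling. NSD1, which encodes an H3K36 methyltransferase and lies 1246 bases from MXD3, fell from between 16.2 and 16.7 to between 6.59 and 7.23 FPKM (log2 fold change -1.15, adjusted p = 1.89e-06), and LMAN2 on the other side fell as well (-0.34, adjusted p = 1.88e-03), but was at -0.02 under median ratio scaling (adjusted p = 0.789). Both neighbours of MXI1 fell, ADD3 by 0.72 and SMNDC1 by 0.36 on the log2 scale (adjusted p = 5.49e-04 and 9.38e-03), and under median ratio scaling the call of SMNDC1 was lost (-0.06, adjusted p = 0.562).

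MGA (ENSG00000174197.16_1, plus strand of chromosome 15, 41913422 to 42065279) was at 9.91, 9.98 and 9.31 FPKM for control and at 6.95, 7.002 and 7.245 for shSETD2. The libraries of each group lay close together, and the log2 fold change was -0.41 (SE 0.048, adjusted p = 2.45e-04). Under median ratio scaling it was -0.11 with an adjusted p of 0.0730. MLX (ENSG00000108788.11_2, plus strand of chromosome 17, 40719086 to 40725257) was at 7.06, 10.55 and 9.51 FPKM for control and at 9.90, 9.29 and 9.35 for shSETD2, and the groups overlapped. Its log2 fold change of 0.08 (SE 0.13) did not pass the test (adjusted p = 0.588). Without control library 1 the sign turned (-0.07, adjusted p = 0.385), and median ratio scaling gave 0.38 with an adjusted p of 0.0337. PSMC3IP, which overlaps MLX on the opposite strand, was lower in the shSETD2 libraries (log2 fold change -0.48, adjusted p = 1.00e-03), as was COASY (-0.28, adjusted p = 0.0255). Both calls were lost under median ratio scaling, with PSMC3IP at -0.17 (adjusted p = 0.0720) and COASY at 0.03 (adjusted p = 0.814), and that of COASY also with a separate variance for each gene and without control library 1 or 3 or shSETD2 library 1 or 2 (adjusted p between 0.0591 and 0.0802). RETREG3 did not pass the test (adjusted p = 0.754). MAPKBP1 beside MGA did not pass either (adjusted p = 0.284), but did under median ratio scaling (0.35, adjusted p = 0.0213) and under quantile scaling.

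**Figure D2:**
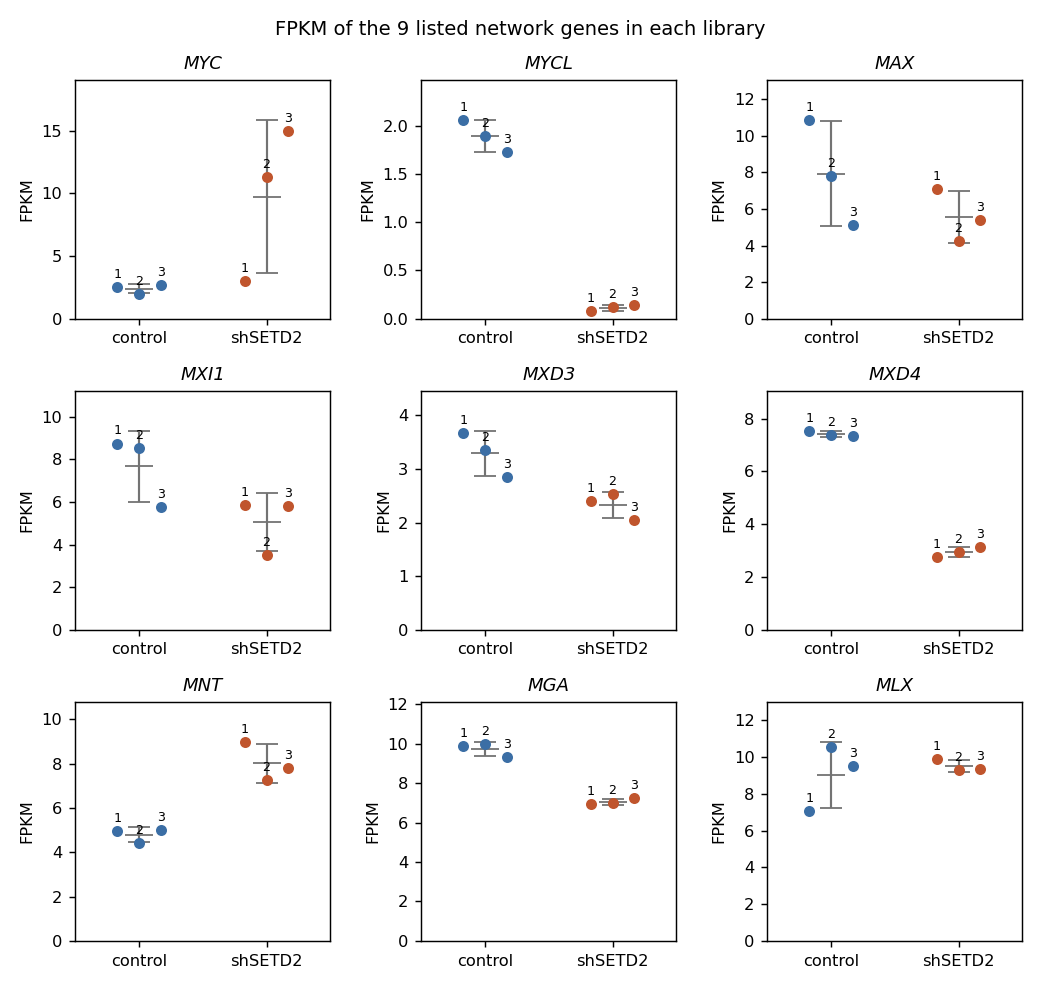
FPKM of the 9 listed network genes in each library (vertical axes start at 0 and differ between genes, points numbered 1 to 3, grey bars give the mean and SD of 3 libraries). MYCL, MXD4 and MGA fall into separate groups, MYC is split within the shSETD2 group, and MAX, MXI1 and MLX overlap.

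Taking the members side by side, 6 of the 9 listed (66.7%) passed an adjusted p under 0.05 in limma, where 78.6% of the 14068 genes tested did. MYC and MNT were higher, against 26.8% of all genes, and MYCL, MXD4, MXD3 and MGA were lower, against 51.8%. The share of members called was therefore not above that of all genes. The same 6 members had groups that did not overlap, and 80.9% of all genes tested did. With 3 libraries against 3, an exact permutation test of these members gave p = 0.1 each, the smallest it can give. The median log2 fold change was -0.41 over the members and -0.29 over all genes tested, and median ratio scaling moved the latter to -0.03. Relative to the median of all genes, the difference was 1.73 for MYC, 0.92 for MNT, -0.80 for MXD4 and -1.09 for MYCL, while it was -0.12 for MGA and -0.08 for MXD3. The calls of MYCL, MXD4 and MNT held under all alternatives in which they were tested.

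**Figure D3:**
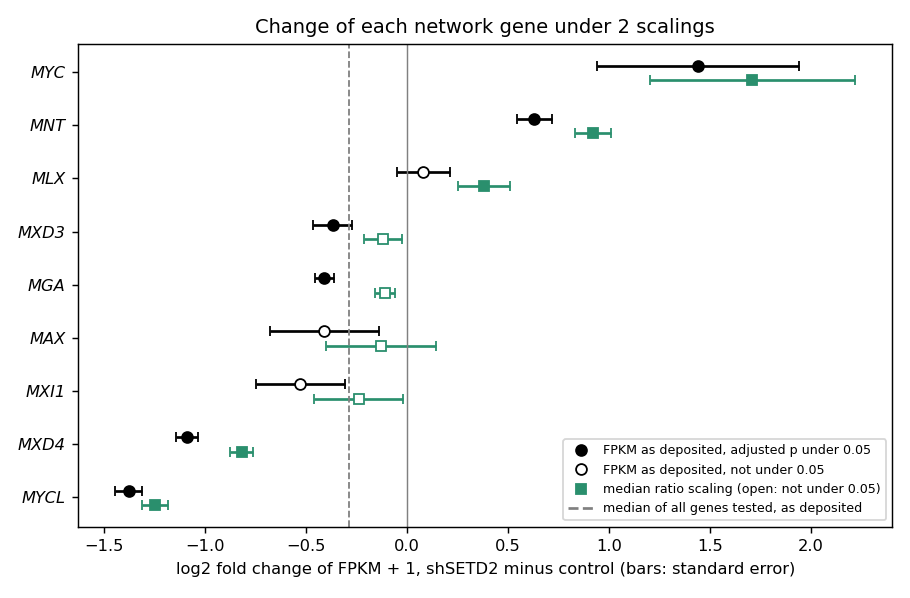
Log2 fold change of FPKM + 1 (horizontal axis, shSETD2 minus control, bars are standard errors (SE)) of the 9 listed members, with the FPKM as deposited (circles) and after median ratio scaling (squares). Filled symbols have an adjusted p under 0.05, and the dashed line is the median of all genes tested (-0.29). MYC, MNT, MXD4 and MYCL lie away from the dashed line, and MGA and MXD3 lie near it.

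The order of the members by FPKM differed between the groups. In control libraries MGA was highest (mean 9.73), followed by MLX, MAX, MXI1 and MXD4 (7.42), and the ranges of each of these overlapped that of the next. Below them MNT (4.80) and MXD3 (3.30) were apart from their neighbours, and MYC (2.395) and MYCL (1.895) came last with overlapping ranges. In shSETD2 libraries MYC had the highest mean (9.74), but its range was from 2.97 to 14.95. This range overlapped that of MLX (mean 9.51) and of every member below MLX down to MXD4. MLX was followed by MNT (8.02) and MGA (7.065), which were apart from the gene above each. MGA overlapped MAX (5.57) and MAX overlapped MXI1 (5.05). MXD4 (2.955), MXD3 (2.33) and MYCL (0.113) came last, each apart from the next.

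The makeup of the network was described by sums of FPKM per library, with no test. MYC and MYCL together came to 4.59, 3.89 and 4.39 FPKM for control and to 3.05, 11.4 and 15.1 for shSETD2. The sum in shSETD2 library 1 was thus below that of every control library. MYC made up between 51.3% and 60.7% of this sum in control and between 97.5% and 99.1% in shSETD2 libraries, library 1 included. The antagonists MXI1, MXD3, MXD4 and MNT summed to between 21.0 and 24.9 FPKM in control and between 16.2 and 20.02 in shSETD2 libraries. Within them MNT went from between 18.7% and 24.0% to between 41.5% and 44.9%, and MXD4 from between 30.3% and 35.0% to between 13.8% and 18.2%. These shares did not overlap between the groups, and each rests on genes tested above. The ratio of antagonists to MYC and MYCL was 5.43, 6.10 and 4.78 for control and 6.57, 1.42 and 1.25 for shSETD2. Here library 1 lay above and libraries 2 and 3 below the control range.

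**Figure D4:**
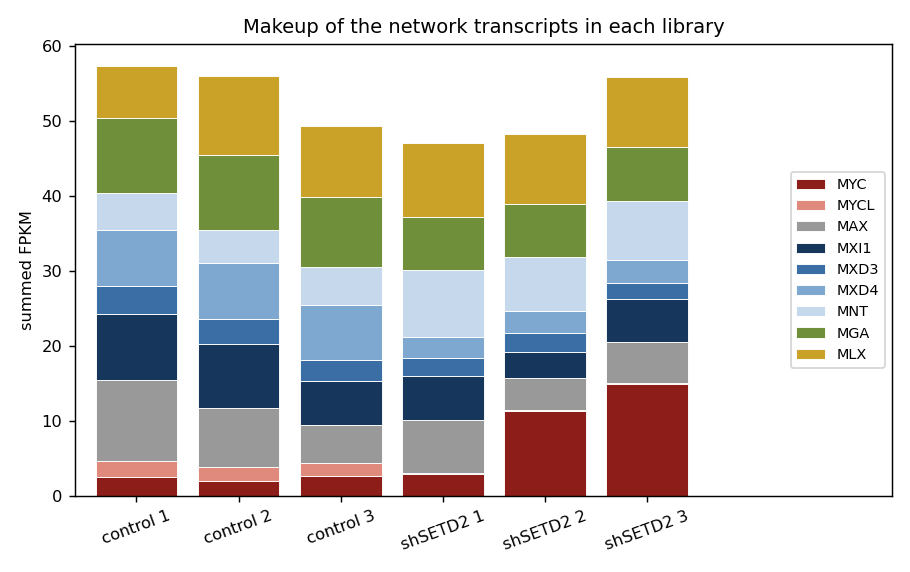
Stacked FPKM of the 9 listed members (vertical axis, starting at 0) in each of the 6 libraries. The total is between 47.0 and 57.4 FPKM, MYC takes a large part of it in shSETD2 libraries 2 and 3 only, and MYCL is not visible in the shSETD2 libraries.

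The other genes of the network were MXD1, a further antagonist, and MLXIP (MondoA) and MLXIPL (ChREBP), the glucose-sensing partners of MLX. MLXIPL was at 3.996, 4.30 and 3.85 FPKM for control and at 0.0136, 0 and 0 for shSETD2, a log2 fold change of -2.33 (SE 0.058, adjusted p = 2.08e-07). MLXIP was between 7.05 and 7.46 FPKM in control and between 5.43 and 5.94 in shSETD2 libraries (log2 fold change -0.29, adjusted p = 2.22e-03), but the change was 0.00 under median ratio scaling. MXD1 was at 0.751, 2.61 and 2.75 FPKM for control and at 1.48, 1.202 and 0.376 for shSETD2, and did not pass the test (adjusted p = 0.196), but did without control library 1 (-0.91, adjusted p = 0.0239).

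Of 5 genes known as targets of MLX with MLXIP or MLXIPL, 4 were tested and PKLR was not listed. TXNIP, which restrains glucose uptake and thioredoxin, was at 13.9, 16.01 and 15.7 FPKM for control and at 0.532, 0.596 and 0.507 for shSETD2. Its paralog ARRDC4 was between 27.4 and 28.8 FPKM in control and between 0.581 and 0.739 in shSETD2 libraries. Both are used as readouts of MLXIP, and their log2 fold changes were -3.39 (adjusted p = 9.39e-08) and -4.14 (adjusted p = 2.88e-08). In contrast, KLF10, a zinc finger factor gene, rose with a log2 fold change of 1.97, and TKT, an enzyme of the pentose phosphate pathway, with 0.55 (adjusted p = 8.49e-08 and 6.27e-05).

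Genes that MYC is known to activate were divided in shares near those of all genes. Of 37 tested, 20 fell, 9 rose and 8 did not pass the test, where 51.8% of all genes fell and 26.8% rose, and the median log2 fold change was -0.23 against -0.29 over all genes. Under median ratio scaling 13 were lower and 15 higher, where 5504 of the 14068 genes tested were lower and 5215 higher. The balance of the list turned with the scaling, and that of all genes moved in the same direction. CCND2, a D-type cyclin gene, went from between 45.01 and 45.95 FPKM to between 7.91 and 8.20 (log2 fold change -2.36, adjusted p = 4.17e-08). CDC25A, a phosphatase gene of the G1/S transition, went from between 42.4 and 43.4 to between 8.51 and 8.75 FPKM (log2 fold change -2.19, adjusted p = 4.72e-08). On the log2(FPKM + 1) scale the largest rises of the list were those of LDHA, which encodes lactate dehydrogenase A (log2 fold change 1.09, adjusted p = 3.41e-04), and TFRC, the transferrin receptor gene (0.87, adjusted p = 4.97e-04).

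Genes that MYC is known to repress were divided, with 5 of 12 tested higher, 4 lower and 3 that did not pass the test (median log2 fold change -0.05), where 26.8% of all genes were higher and 51.8% lower. Median ratio scaling gave 7 higher and 3 lower, beside 5215 higher and 5504 lower of all 14068 genes. CCND1, the cyclin D1 gene, rose from between 5.82 and 7.47 to between 177.8 and 178.9 FPKM, and THBS1, which encodes thrombospondin 1, from at most 0.0849 to at least 35.5 FPKM (log2 fold changes 4.57 and 5.14, adjusted p = 5.53e-08 and 7.05e-09). GAS1, a growth arrest gene, and CEBPA, a differentiation factor gene, fell with log2 fold changes of -3.18 and -2.27 (adjusted p = 4.87e-08 and 1.19e-06).

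**Figure D5:**
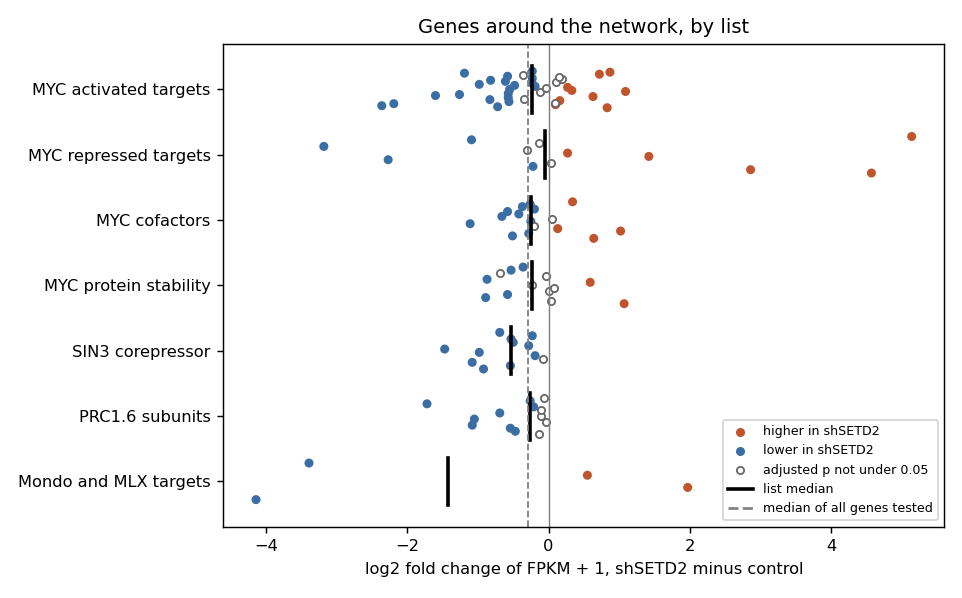
Log2 fold change of FPKM + 1 (horizontal axis, shSETD2 minus control) of each tested gene in 7 lists of genes around the network. Filled points have an adjusted p under 0.05, black bars are list medians and the dashed line is the median of all genes tested (-0.29). The SIN3 corepressor and PRC1.6 lists hold no called gene above 0, and the lists of MYC targets hold genes on both sides.

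Subunits of the SIN3 corepressor, which the antagonists recruit, mostly fell. Of 12 tested, 11 fell and ING1 did not pass the test, with a median log2 fold change of -0.53, where 51.8% of all genes fell and their median was -0.29. RBBP7, a histone-binding subunit (log2 fold change -1.47, adjusted p = 5.44e-06), and the deacetylase gene HDAC2 (-1.08, adjusted p = 4.75e-06) fell most. Under median ratio scaling 7 were lower, as were 5504 of all 14068 genes. Of 13 PRC1.6 subunits, the complex that holds MGA, 8 fell and 5 did not pass the test, where 78.6% of all genes were called and 51.8% fell. The median of -0.26 was near that of all genes (-0.29). TFDP2, a partner of E2F proteins, was lowest (log2 fold change -1.72, adjusted p = 4.65e-07). HDAC1 and HDAC2, which both fell, are shared with the SIN3 list. Median ratio scaling gave 6 lower and 4 higher, beside 5504 lower and 5215 higher of all 14068 genes. Of 14 germline genes that PRC1.6 silences, 4 were listed and 3 tested. Of the 3, 2 fell and 1 did not pass the test (log2 fold change 0.01, adjusted p = 0.892), where 51.8% of all genes fell. MEIOC, a meiosis gene, was between 0.795 and 1.16 FPKM in control and listed at 0 in all shSETD2 libraries. SYCE2, of the synaptonemal complex, had a log2 fold change of -0.78 (adjusted p = 0.0166), a call that was lost without shSETD2 library 2 or 3 (adjusted p = 0.0585 and 0.0507), under quantile scaling and with a separate variance for each gene.

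Cofactors of MYC went in both directions, with 4 of 16 higher, 10 lower and 2 that did not pass the test (median log2 fold change -0.25), beside 26.8% higher and 51.8% lower among all genes. CDK9, the kinase that releases paused RNA polymerase, rose from between 9.70 and 10.7 to between 21.6 and 22.1 FPKM (log2 fold change 1.02, adjusted p = 3.00e-06), and ACTL6A, of chromatin remodelling complexes, also rose (0.64, adjusted p = 5.66e-04). The acetyltransferase gene KAT2A (-1.11, adjusted p = 9.17e-06) and the helicase gene RUVBL1 (-0.66, adjusted p = 2.39e-05) fell most. Median ratio scaling gave 5 higher and 3 lower, beside 5215 higher and 5504 lower of all 14068 genes. Of 13 tested genes that act on MYC protein stability, 2 rose, 5 fell and 6 did not pass the test (median -0.23), where 78.6% of all genes were called. AURKA, a mitotic kinase that stabilises MYC family proteins, was at 19.8, 18.3 and 12.5 FPKM for control and at 25.8, 44.01 and 41.0 for shSETD2. Among the shSETD2 libraries AURKA, like MYC, was lowest in library 1. Its log2 fold change was 1.07 (SE 0.24, adjusted p = 6.31e-03), and PPP2R5A, a regulatory subunit of the phosphatase PP2A, rose with 0.59 (adjusted p = 6.58e-04). FBXO32 and SKP2, which encode F-box proteins of ubiquitin ligases, fell with -0.89 and -0.87 (adjusted p = 6.51e-05 and 1.29e-05). Under median ratio scaling 5 of this list were higher and 4 lower, beside 5215 and 5504 of all 14068 genes.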

How the data were processed

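Total RNA of 6 libraries labelled H1650 (3 control, 3 shSETD2) was sequenced after a stranded library preparation. The authors mapped the reads to hg19 with HISAT2 and quantified genes with Ballgown (versions not given in the sources used here), and deposited FPKM of 15897 genes of named biotypes, such as protein_coding and lincRNA, which was the only table used. A second table, with the fold changes, p-values and q-values of the authors, was not used. The ratios of low FPKM values between libraries did not pile up at a shared value (at most 9.09% of genes within 1% of a shared ratio), so depth could not be recovered and no counting error is given.

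The 14068 genes whose FPKM averaged 0.5 or more were fitted on log2(FPKM + 1) with limma 3.58.1 (lmFit, eBayes with trend) in R 4.3.3, with group as the only term, and p-values were adjusted by Benjamini-Hochberg across these genes. Fold changes on this scale understate those of low genes. As a check of the code, the fit was run on simulated data with 200 changed genes. In the data themselves 11057 genes were called, so that check cannot show how the calls behave here. Coordinates are those of the deposited table (GRCh37). Python 3.11.15, pandas 2.3.3, scipy 1.17.1 and matplotlib 3.10.9 were used for the rest. Named were all members, SETD2, the 3 genes nearest to MYC, listed neighbours within 100 kb, and of each hand-written list all genes (lists of up to 5) or the 2 called with the highest and lowest fold change. The lists hold further network genes, MYC cofactors, genes of MYC protein stability, SIN3 and PRC1.6 subunits, targets of MYC, of MLX and of PRC1.6, and markers of cell types, of which 1 is not reported here. The members and lists were chosen with earlier results of these data known. Alternatives were pseudocounts of 0.1 and 0.01, no filter or a stricter one (mean FPKM of 5), scaling by quantiles, median ratio or upper quartile, eBayes without trend, a separate variance for each gene, a block for replicate number, and each library left out.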

Additional observations from a re-analysis of the deposited data

How the results depend on the processing

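Under 16 alternatives, between 4 and 7 members were called, against 6 with the values as reported, and the direction of every member but MLX held. MLX was between -0.07 (without control library 1) and 0.19 with a library left out. MYC kept its direction (log2 fold change between 1.05 and 2.05) and was called under 10 of 16. Raising the filter to a mean FPKM of at least 5, which leaves 7078 genes, left out MYCL and MXD3 and gave 5647 genes called, 2401 higher and 3246 lower. Median ratio scaling changed the list of genes that MYC activates to 15 higher and 13 lower and left 7 SIN3 genes lower. Over all 14068 genes it gave 5215 higher and 5504 lower, raising the share of called genes that were higher from 34.1% to 48.7%. For SETD2 the log2 fold change was between -0.83 and -0.45 with a library left out, and it passed the test without control library 2 (-0.83, adjusted p = 0.00648) or shSETD2 library 3 (-0.73, adjusted p = 0.0418). Median ratio scaling gave -0.27 (adjusted p = 0.343). With the replicate block, it was -0.58 with an adjusted p of 0.0156. The replicate block changed no call of a member. Same-numbered libraries showed no shared deviation (correlations between -0.024 and 0.018), which does not settle whether they were handled together. Leaving out a library gave between 10491 and 10921 genes called, between 5 and 7 members, and between 77 and 83 genes of the lists. With all libraries 83 of 110 list genes tested were called, members and markers left out, beside 78.6% of all genes. The cause of these shifts was not tested. Library depth is unknown, so its limit on low genes such as MYCL could not be set.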
